A study of Mus musculus with 2 samples.

Results

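Gene deserts are long stretches of chromosome that hold no protein-coding gene. Some of them carry enhancers that act over long distances on genes of development at the desert's edge, and many are crossed by long non-coding RNAs (lncRNAs). Otp (Orthopedia) is a homeodomain transcription factor needed for the development of neurons in the hypothalamic paraventricular nucleus (PVN), and homeodomains recognise short AT-rich sequences. Described here are the autosomal Otp regions that lie in such deserts.

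CUT&RUN, in which an antibody tethers a nuclease to chromatin in isolated nuclei and the released DNA is sequenced, was applied to the adult PVN of wild-type mice. The Otp sample was made with an antibody against Otp and the IgG sample with IgG, an antibody control with no target. Both are labelled as neurons, and the protocol describes nuclei taken through a sucrose cushion, with no sort of neuronal nuclei. With 1 library per antibody, differences could be neither replicated nor tested across samples. A peak list holds no expression values, so the tissue label could not be set against marker genes.

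A region was kept if it lay on chromosomes 1 to 19, overlapped no IgG region, had its summit outside all protein-coding genes and over 100 kb from every protein-coding gene end, and lay over 1 kb from the ends of genes of any other biotype. This left 701 of the 11379 regions of the Otp list. They are 6.47% (95% exact binomial interval 6.02 to 6.95%) of the 10831 autosomal Otp regions without IgG overlap. They were chosen by the peak call in the Otp library, by position and by the absence of IgG overlap, so counts by position and peak strength are descriptions. The bases that meet the same position rule sum to 640.5 Mb, or 26.7% of the 2403 Mb between the outermost genes or regions of the autosomes. All intervals take in counting error alone, and PCR copies of a molecule can make them too narrow. Total depth is unknown, because the lists hold no read numbers.

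The deserts around a pair of related microRNA (miRNA) clusters held 11 of the 701 regions. One runs from Mir100 through Mirlet7a-2 to Mir125b-1 on chromosome 9, inside the lncRNA Mir100hg. The other runs from Mir99a through Mirlet7c-1 to Mir125b-2 on chromosome 16, beyond the annotated end of the lncRNA Mir99ahg. Their miRNAs repress target transcripts through pairing of the seed, bases 2 to 8, and the let-7 and miR-125 families are known for timing development and neuronal differentiation. The mature sequences show which arms are alike between the clusters. They come from RefSeq (GRCm38.p6, the assembly that mm10 denotes), written 5′ to 3′ with the seed in capitals.
mmu-miR-100-5p (chromosome 9): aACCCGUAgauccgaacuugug
mmu-miR-99a-5p (chromosome 16): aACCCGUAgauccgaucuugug
mmu-let-7a-2-3p (chromosome 9): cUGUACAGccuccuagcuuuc
mmu-let-7c-5p (chromosome 16): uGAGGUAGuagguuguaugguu
mmu-let-7c-1-3p (chromosome 16): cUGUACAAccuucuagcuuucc
mmu-miR-125b-5p (chromosomes 9 and 16): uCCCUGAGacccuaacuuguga
The members miR-100-5p and miR-99a-5p share the seed ACCCGUA, the 3p arms of the let-7 genes have the seeds UGUACAG (chromosome 9) and UGUACAA (chromosome 16), and miR-125b-5p is listed with the same sequence at both clusters. The other 3p arms have unlike seeds: CAAGCUU in miR-100-3p against AAGCUCG in miR-99a-3p, and CGGGUUA in miR-125b-1-3p against CAAGUCA in miR-125b-2-3p. The 5p arm of Mirlet7a-2 is not shown, so the let-7 5p arms are not compared.

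On chromosome 9, the desert between Ubash3b (a phosphatase family protein of immune signalling) and the gene model Gm40514 held 4 of the 701 regions, 3 of them inside Mir100hg (gene ID 73144, positions 41376526 to 41615185). The strongest covered positions 41446536 to 41446706, lay 84.8 kb before Mir100 and had 28 tags at its summit (95% Poisson interval 18.6 to 40.5). It had a fold enrichment of 12.1 and a −log10 q of 22.8. The fold enrichment, given by the authors' caller, is the pileup over the caller's background estimate after the same constant is added to both. It is therefore smaller than the plain ratio of tags to background. A tag is a read or fragment as the caller counted it. The second, at positions 41474660 to 41474835, had 14 tags (7.65 to 23.5), a fold enrichment of 9.06 and a −log10 q of 11.2, and the third, at 41398007 to 41398087, had 9 tags (4.12 to 17.1). The region outside the lncRNA, 154.1 kb from Mir125b-1, had 12 tags. A further Otp region inside Mir100hg, 2.08 kb from Mir125b-1 with 15 tags, missed the rule because an end of the gene Gm51670 lay 197 bp away. The IgG list had 0 regions in this gap.

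The region at 41474660 to 41474835 lay just before an annotated start of Mir100hg that falls within the gene. Of the 701 regions, 2 overlapped a RefSeq promoter window (250 bases before to 50 after a start), and this one covers 176 of its 300 bases. The window is chr9:41474643-41474942 on the plus strand (GRCm38.p6), shown with the Otp region in capitals because it is the sequence under a region of 14 tags next to a start of the miRNA host gene.
Mir100hg promoter window: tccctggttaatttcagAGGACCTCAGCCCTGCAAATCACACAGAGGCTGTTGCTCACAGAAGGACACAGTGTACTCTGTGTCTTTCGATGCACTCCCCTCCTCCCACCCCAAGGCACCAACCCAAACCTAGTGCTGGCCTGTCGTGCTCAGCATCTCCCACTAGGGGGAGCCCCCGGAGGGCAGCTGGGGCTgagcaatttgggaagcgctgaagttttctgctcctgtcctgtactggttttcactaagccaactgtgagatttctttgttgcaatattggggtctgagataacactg
The summit falls on base 82 of the window, within the capitals. The homeodomain palindrome TAATTA, which reads the same on both strands, does not occur in these letters, and 5.29% of all 32851 RefSeq windows hold it. The core TAAT, searched on both strands, occurs once, outside the capitals, and 58.0% of all windows hold it. The other window belongs to Gm6145 (chromosome 14, minus strand), near Spry2, an inhibitor of receptor tyrosine kinase signalling. The region at positions 105631223 to 105631303 there, with a fold enrichment of 6.055 and a −log10 q of 5.16, shares 29 bases with it.
Gm6145 shared bases: AGAAAGCACACCCTGGCACAGATCGGTGG

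On chromosome 16, the gap between Usp25 (a deubiquitinase) and Cxadr (a cell adhesion protein and virus receptor) spans 1.18 Mb and held 7 of the 701 regions. All 7 were weak, with 7 to 15 tags among the 6 whose pileup could be worked out. The region nearest to a miRNA covered positions 77644478 to 77644597, 1.68 kb from Mir125b-2, with 12 tags (6.201 to 20.96) at 5.19-fold enrichment. The next covered 77662140 to 77662245, 15.9 kb from the same miRNA gene, with 15 tags (8.40 to 24.7), a fold enrichment of 7.87 and a −log10 q of 9.65. A region inside Mir99ahg, at 77537056 to 77537148, had a −log10 q of 2.43, the lowest value among the 701, shared to that rounding with a region between Klhl29 and Apob. The others lay 256.4 to 510.4 kb from Mir125b-2 and 346.4 to 362.7 kb from Mir99a. The IgG list had 0 regions here too. These loci were picked out after their values were seen.

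**Figure D1:**
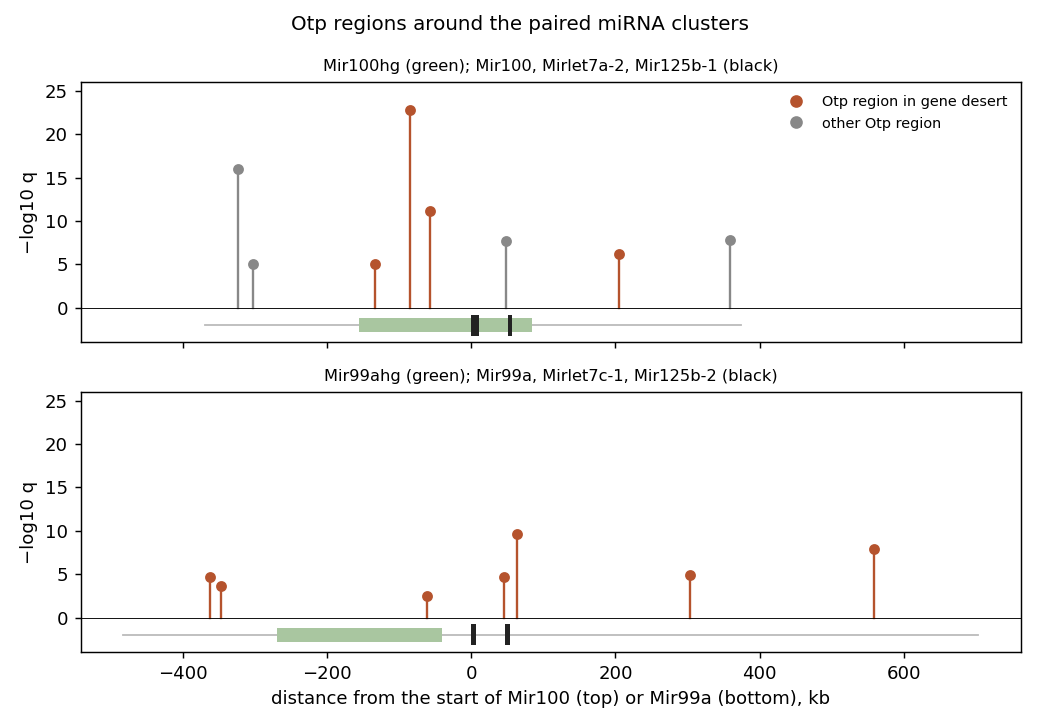
Otp regions in the gaps that hold the paired miRNA clusters, by distance in kb from the start of Mir100 (top) or Mir99a (bottom), with −log10 q on the vertical axis. Lollipops are regions of the gene deserts (red) or other Otp regions (grey), boxes are the host lncRNA (green) and the miRNAs (black), and the grey line is the gap between coding genes. The highest, at 22.8, stands 84.8 kb before Mir100 inside Mir100hg, while the 7 regions in the gap that holds Mir99a reach no more than 9.65.

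By position, gene deserts held few Otp regions for their size. Their 1.09 regions per Mb (95% Poisson interval 1.01 to 1.18) compare with 2.66 per Mb in intergenic sequence 1 to 100 kb from a coding gene, 2.99 inside coding genes and 71.3 within 1 kb of a coding gene end. Positions as far from coding genes but within 1 kb of the end of another gene, such as a lncRNA or pseudogene, held 69 regions, or 4.12 per Mb (3.20 to 5.21). The share of desert bases to which reads can be mapped was not analysed here.

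**Figure D2:**
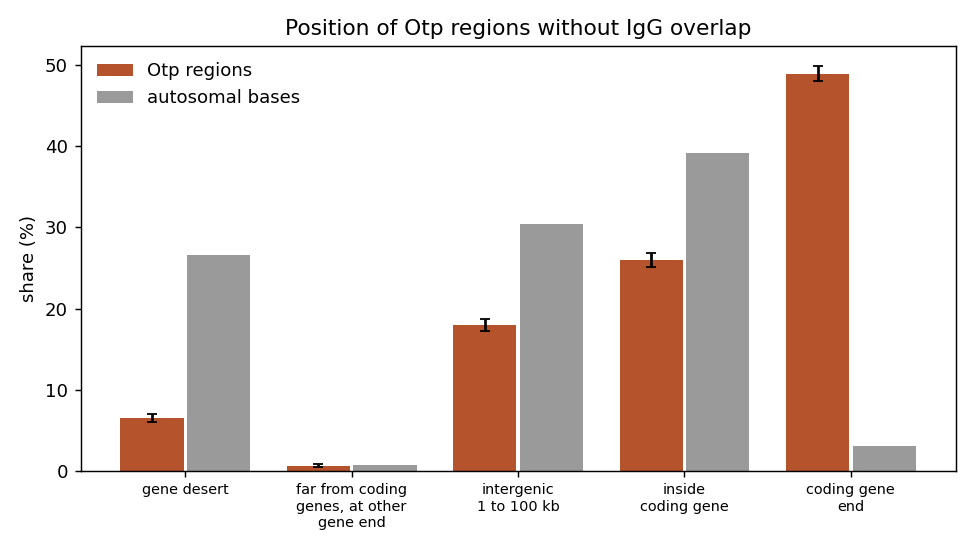
Share of the 10831 autosomal Otp regions without IgG overlap (red, left bars, with 95% exact binomial intervals) and share of autosomal bases (grey, right bars) in each position class, in percent. Gene deserts take up 26.7% of bases and hold 6.47% of regions, while coding gene ends take up 3.10% of bases and hold 48.95% of regions.

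The density also fell within the deserts with distance from the nearest coding gene. From 100 to 200 kb it was 1.57 regions per Mb (1.40 to 1.76, 301 regions), from 200 to 500 kb 1.18 (1.04 to 1.32, 294 regions), from 500 to 1000 kb 0.606 (0.481 to 0.753, 81 regions) and beyond 1000 kb 0.386 (0.250 to 0.570, 25 regions). The median pileup over the same distances was 10, 10, 9 and 9 tags. The share with a −log10 q of at least 10 was 22.6%, 25.9%, 14.8% and 20%, with intervals that overlap. Over all autosomal Otp regions without IgG overlap it was 33%. The first 2 shares include regions within 5 kb of IgG regions, of which 80% reached 10. Over 5 kb away lay 288 of the 301 and 272 of the 294, and the shares were not recomputed for them. The median region lay 229.2 kb from a coding gene end (interquartile range 155.8 to 366.5 kb). Just inside the bound were regions 100085 bp from Eno1b with 7 tags, 100430 bp from Myo16 with 11 tags and 100595 bp from Ddx1 with 8 tags. Just outside it were regions 99744 bp from Ipmk with 11 tags, 99412 bp from Gramd3 with a fold enrichment of 7.43 and 98701 bp from Ube2cbp with 9 tags.

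**Figure D3:**
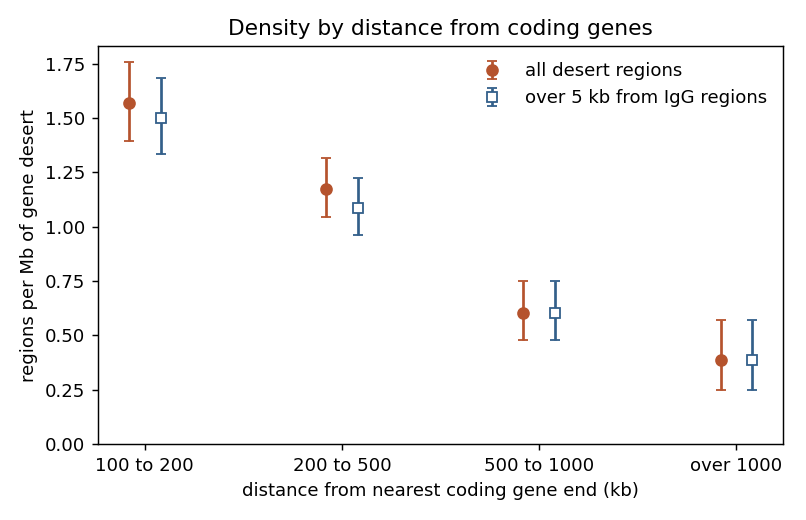
Otp regions per Mb of gene desert (vertical axis) by distance in kb of the nearest protein-coding gene end, for all 701 regions (filled circles) and for the 666 over 5 kb from IgG regions (open squares), with 95% Poisson intervals. The density falls from 1.57 per Mb at 100 to 200 kb to 0.386 beyond 1000 kb, and the squares follow the same order.

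The deepest regions lay in the deserts beside Celf4 and Pcdh9. The gap on chromosome 18 between Celf4, a neuronal RNA-binding protein, and Pik3c3, a lipid kinase of autophagy, spans 4.51 Mb and held 11 regions with 7 to 21 tags. It includes 4 of the 5 regions farthest from any coding gene, at 1863 to 2188 kb. Its strongest, at positions 28725331 to 28725442, lay inside the lncRNAs 4930474G06Rik and BC051408, with 21 tags (13.0 to 32.1) at 12.7-fold enrichment. The other of the 5 farthest, 2102 kb from the protocadherin gene Pcdh9 on chromosome 14, had 17 tags (9.90 to 27.2) and a fold enrichment of 11.9.

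Ranked by −log10 q, the leading regions were not typical of the rest. Of the 10 highest, 9 lay within 37.3 kb (positions 3000037 to 3037446) at the start of the mapped part of chromosome 9, before Alkbh8, a tRNA-modifying enzyme. This stretch held 21 of the 701 regions, with 159 to 616 tags (median 321) but a fold enrichment of 1.47 to 5.38, so the caller's local background was high as well. Each of the 21 lay 88 to 1296 bp from an IgG region without touching it. On chromosome 17, 7 regions between Tcp10c and Tcte2, 5 of them inside the lncRNA 2700054A10Rik, had 15 to 81 tags and lay 236 to 2112 bp from an IgG region. A further 3 lay within 2.37 kb of Rn18s-rs5, a sequence related to 18S ribosomal RNA, with 82 to 88 tags and fold enrichments of 1.82 to 1.96. In all, 35 of the 701 regions had an IgG region within 5 kb. Over all 10831 autosomal Otp regions without IgG overlap it was 67 (0.619%), a count that includes these 35. The rule removed overlap alone, and signal of the control stands directly beside these 35. Without these 35, the density over all deserts was 1.04 regions per Mb.

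Before IgG overlap was removed, 780 Otp regions met the position rule and 79 of them (10.1%, 8.10 to 12.5%) overlapped an IgG region. Over all autosomal Otp regions the share was 2.29%, and 1.23 to 2.95% in the position classes other than gene deserts. Of the 269 autosomal IgG regions, 84 met the position rule, and 82 of these overlapped an Otp region. Both pileups could be worked out at 45 of these overlaps, where IgG tags over Otp tags had a median of 0.323 (interquartile range 0.242 to 0.392). The caller's genome background, worked out from values at the regions themselves, stood at 0.512 tags for Otp and 0.0873 tags for IgG. That is 5.87 Otp tags per IgG tag.

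These ratios limit what the control can show. The weakest IgG region with a pileup had 4 tags. Scaled by the background ratio, 49 of the 687 desert regions with a pileup would reach 4 tags in the IgG library, and 17 of these lay over 5 kb from any IgG region. Scaled by the ratio at shared regions of the deserts, 193 would, and 158 of them lay over 5 kb away. That ratio was taken only where IgG was called too, so lower ratios were left out and 193 may be too many. For regions that stay below 4 tags under both scalings, a difference from IgG was not detectable at this depth.

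Among the 666 regions over 5 kb from IgG regions, 9 of the 10 highest by −log10 q, a set chosen after values were seen, had 23 to 45 tags and fold enrichments of 14.1 to 19.4. A region 164.8 kb from Gdi2, a regulator of Rab GTPases, had 45 tags and a fold enrichment of 19.4. It lay near the start of chromosome 13, with 2 weaker regions within 0.971 kb. Another lay between Fgf9, a growth factor gene 545.9 kb away, and 1700129C05Rik, with 28 tags and a fold enrichment of 19.2. The region 193.2 kb from Obi1, which encodes a ubiquitin ligase, stood inside the lncRNA D130009I18Rik and had 27 tags. That 343.6 kb from Plk2, a kinase induced by neuronal activity, had 26 tags, and that 681.6 kb from Marcks, a substrate of protein kinase C in growing neurites, had 24 tags. The 9 were completed by regions nearest to Olfr161 (an olfactory receptor), Nbea (a protein of synaptic trafficking), Ogfrl1 and Kcnh8 (a potassium channel). They lay 476.1, 391.9, 110.3 and 173.4 kb away, with 31, 25, 28 and 23 tags. The region before Olfr161 lay near the start of chromosome 16, in a group of 3 within 1.68 kb.

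Most desert regions were far weaker than these. The median pileup of the 687 with a value was 10 tags (interquartile range 8 to 13), against 11 tags in intergenic sequence nearer to genes, 11 inside genes and 15 at coding gene ends. The median fold enrichment was 6.61 (5.66 to 7.94), against 6.57, 6.45 and 7.57 in those classes, and the median width was 100 bp, against 102, 105 and 167 bp. The commonest −log10 q, 4.88, belonged to 55 regions with 8 tags over the genome background. A −log10 q of at least 10 was reached by 161 (23.0%, 19.9 to 26.3%), against 33% of all autosomal Otp regions without IgG overlap, and by 133 of the 666 over 5 kb from IgG regions (20.0%, 17 to 23.2%). At 20 or more there were 43 (6.13%, 4.47 to 8.17%), against 10.1% of all, and 21 of the 666 (3.15%, 1.96 to 4.78%). The 35 near IgG regions thus made up 22 of the 43.

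**Figure D4:**
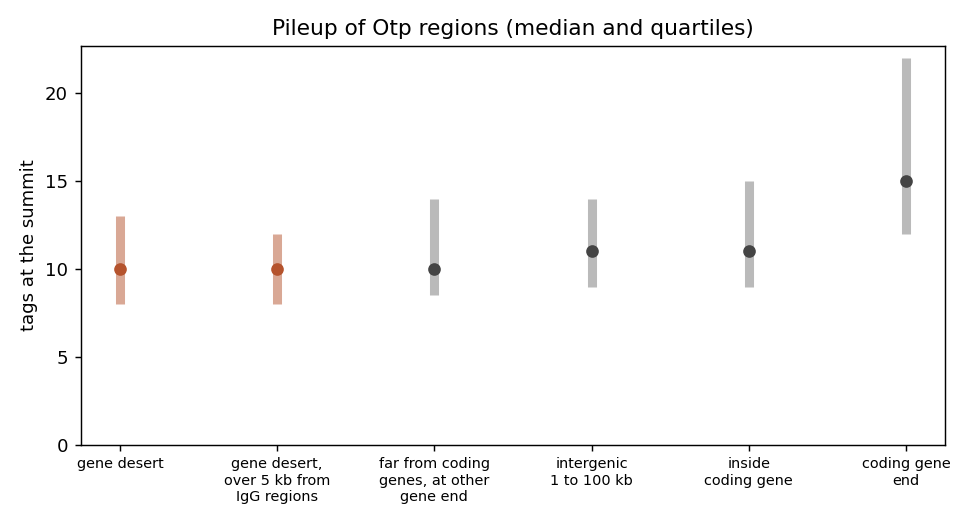
Tags at the summit of Otp regions by position class, as median (dot) and interquartile range (bar), for gene deserts with all regions and with those over 5 kb from IgG regions (red) and for the other classes (grey). Desert regions have a median of 10 tags with and without the regions near IgG regions, against 15 tags at coding gene ends.

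By chromosome, the density was lowest on chromosome 1, at 0.605 regions per Mb of gene desert (0.421 to 0.841, 35 regions), and highest on chromosome 9, at 2.07 (1.55 to 2.72, 52 regions). Without the regions near IgG regions, chromosome 9 had 1.24 (0.839 to 1.75, 31 regions) and chromosome 17 had 0.597 (0.308 to 1.04, 12 regions) in place of 1.09. Chromosomes 19 (1.56), 18 (1.46) and 13 (1.43) were then highest, with intervals that meet those of most others.

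**Figure D5:**
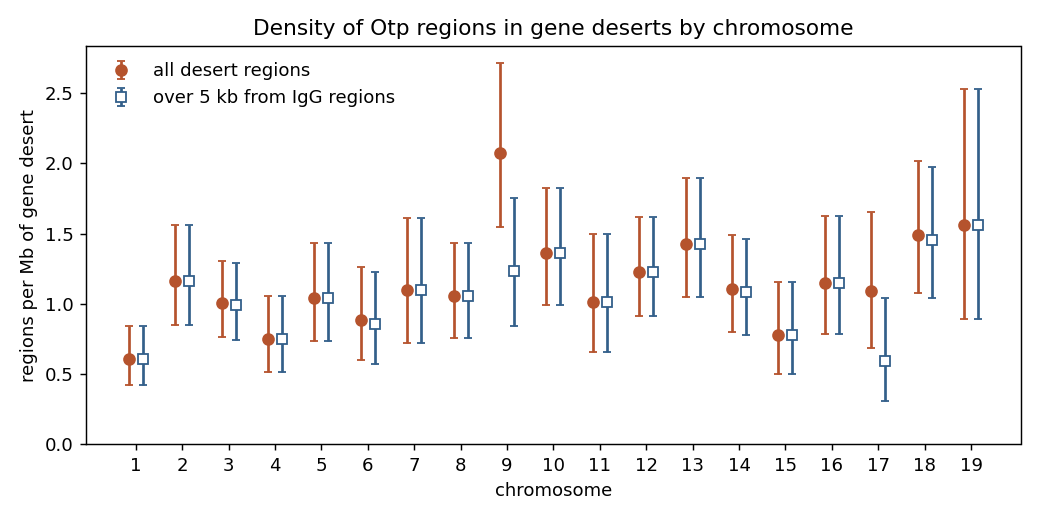
Otp regions per Mb of gene desert (vertical axis) on each autosome, for all 701 regions (filled circles) and those over 5 kb from IgG regions (open squares), with 95% Poisson intervals. Chromosome 9 stands at 2.07 with all regions and at 1.24 without those near IgG regions, while chromosome 1 stays at 0.605.

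The regions were spread over many deserts. Of the 1389 gaps between coding genes that hold desert bases, 408 had at least 1 region: 242 had 1, 101 had 2 and 65 had 3 or more. As neighbours, 472 different coding genes were nearest to a region, 334 of them to 1 region each. In all, 259 of the 701 (36.9%, 33.4 to 40.6%) had another such region within 100 kb, against 38.4% (36.2 to 40.6%) of intergenic regions nearer to genes. The intergenic class is denser (2.66 against 1.09 regions per Mb), so like shares do not mean like grouping. Within 1 kb the shares were 11.4% (9.15 to 14%) in deserts and 6.38% (5.34 to 7.56%) in the intergenic class. Of the 666 desert regions over 5 kb from IgG regions, 9.01% (6.95 to 11.4%) had another within 1 kb. The 259 formed 104 groups, of which 80 were of 2 regions, 17 of 3 and 7 of 4 or more.

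After the stretch before Alkbh8 and the gap beside Celf4, the most regions lay between Tcp10c and Tcte2, before Olfr161 and between Usp25 and Cxadr (7 each). The last of these gaps holds the Mir99a cluster, and its 7 regions span 920.5 kb. Between Plk2 and Actbl2, an actin-like gene, there were 6, with 8 to 26 tags, the lead one described above. Between Sall3, a zinc finger factor of neural development, and Galr1, a receptor for the neuropeptide galanin, there were also 6, with 9 to 16 tags, of which 4 lay 221.6 to 332.9 kb from Galr1. Per Mb of desert, and among gaps with at least 3 regions, those before Alkbh8 (96.6), between Tcp10c and Tcte2 (55.96) and at Rn18s-rs5 (29.7) were among the 5 highest, all beside IgG regions. The gap between Tmem17, a protein of the primary cilium, and B3gnt2, a glycosyltransferase, had 3 (27.0 per Mb), with 9, 9 and 12 tags.

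Genes listed for the PVN, not all of them particular to it, were the nearest neighbour of few regions and of few desert bases. Of 17 PVN neuropeptide genes, 7 border desert bases (0.344% of all) and 2 were nearest to 3 of the 701 regions (0.428%). Cartpt, whose CART peptide restrains feeding, had 2, at 107.5 kb with 19 tags (11.4 to 29.7) at 12.5-fold enrichment, and at 161.1 kb with 9 tags. Adcyap1, which encodes the peptide PACAP, had 1 at 173.7 kb with 7 tags. Of 20 PVN transcription factors, 9 border desert bases (0.589% of all) and 2 were nearest to 1 region each (0.285% in all), Zfhx3 at 292.4 kb with 9 tags and Sim1, needed like Otp for PVN development, at 164.7 kb with 6 tags (2.20 to 13.1). None of the 20 energy balance genes was nearest to any of the 701 regions, a count of 0 that allows a share of up to 0.428% by the limit of 3 counts, or 0.525% by the upper bound of the exact interval, and 6 of them border desert bases (0.0867% of all). Of 15 genes of neighbouring hypothalamus, Npy, a peptide that drives feeding, had 1 region at 106.1 kb with 9 tags. These counts take the nearest gene only. Gaps edged by the PVN transcription factors Pou3f2, Pou3f3 and Tshz2 held 3, 2 and 1 regions, all nearer to the gene at the other edge. The gap between Zfhx3 and Pmfbp1 held 1 more with 10 tags, nearer to Pmfbp1. The gap between Kif18a and the energy balance gene Bdnf held 1, nearer to Kif18a, with 9 tags.

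Developmental factors and adhesion genes own much more desert. The 32 homeobox genes were nearest to 5 regions (0.713%, 0.232 to 1.66%) and 0.965% of desert bases, namely Irx1 with 2 and Pbx3, Emx2 and Zfhx3 with 1 each. Zfhx3 is also on the list of PVN transcription factors, so its region counts in both lists. The 37 other developmental transcription factors were nearest to 11 (1.57%, 0.786 to 2.79%) and 2.54% of bases. These were led by Zfp521, a zinc finger factor of neural differentiation, at 130.6 kb with 15 tags (fold enrichment 10.6), and included Sox2, a factor of neural progenitors, at 204.4 kb with 13 tags, Ebf1 and Sox11 with 2 regions each and Mef2c at 776.5 kb with 9 tags.

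Of the adhesion genes, 23 cadherins and protocadherins were nearest to 10 regions (1.43%, 0.686 to 2.61%) but to 5.40% of desert bases. Besides Pcdh9, these included Pcdh18 (12 tags), Pcdh20 (11 and 8 tags) and Cdh11 (8 and 7 tags, 1281 and 1302 kb away). The 39 synaptic adhesion genes were nearest to 16 regions (2.28%, 1.31 to 3.68%) and 5.29% of bases. Cntnap2, a neurexin-family protein, led with 18 tags (10.7 to 28.4) at 12.6-fold enrichment at 267.1 kb, followed by Cntnap5b (13 tags) and Tenm4 (13 tags). The 24 axon guidance genes were nearest to 3 regions (0.428%, 0.0883 to 1.25%) and 2.15% of bases, all 3 beside the netrin receptor Unc5d with 9 to 12 tags. The last of these intervals, like those of the cadherins and synaptic adhesion genes, lies below the share of bases. These genes hold long deserts, and the density fell with distance over all genes. The part that distance has in these shares was not tested.

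Markers of other cells own little desert. Of the astrocyte genes, Slc1a3, a glutamate transporter, had 1 region at 104.7 kb with 7 tags. The lists of oligodendrocyte, microglial, vascular or ependymal and housekeeping genes had 0 regions, but of these 45 genes only 2 border desert bases, so the count says nothing about those cells.

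Genes other than protein-coding ones reached into the deserts. Of the 701 regions, 106 (15.1%, 12.6 to 18.0%) lay inside such a gene, against 11.7% of desert bases, and 102 of the 106 lay inside a lncRNA. They fell in 95 genes, most with a single region. After 2700054A10Rik with 5, the lncRNAs 5730522E02Rik (593731 bp long) and Mir100hg had 3 each. A −log10 q of at least 10 was reached by 30 of the 106, against 161 (23.0%) over all 701. The 30 include the 5 inside 2700054A10Rik, which lay 236 to 2112 bp from an IgG region. The nearest gene of this kind was a lncRNA for 369 regions and a pseudogene for 224, at a median distance of 30.3 kb.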

How the data were processed

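Peak lists of 1 Otp and 1 IgG library were used, grouped by the antibody label. MACS2, Bowtie2, Trimmomatic, SAMtools and Picard are named with the build mm10, per the submitters' processing notes. Their versions and settings, the handling of duplicates and any use of a control by the caller are ones the sources used here do not give. Each sample has a list of its own. In the lists deposited by the authors, fold enrichment was read as the summit's pileup plus 1 over the caller's background plus 1. Significance is given as −log10 of p and of q. The lowest −log10 q is 2.01 (Otp) and 2.03 (IgG). Depth is unknown.

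Gene positions came from the RefSeq table of GRCm38.p6 (20554 protein-coding and 26151 other autosomal genes). A further 333 genes whose positions are on other scaffolds were left out, which changed no member. Gene ends were taken as given, without strand. Overlap meant at least 1 bp. Bases meeting the position rule were summed exactly. Pileups were solved from fold and p (a whole number matching −log10 p within 0.001, the next missing by over 0.005), which gave 98.3% of Otp regions. The genome background is the lowest value shared by at least 3 regions. Position and pileup calculations were tested on simulated data. Intervals are 95% Poisson for pileups and densities and 95% exact (Clopper-Pearson) binomial for shares. There is 1 library per group, so no p-value is given.

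The members and the 14 gene lists (279 genes) were chosen with earlier results of these data known. Regions named were the 10 highest by −log10 q, the 5 farthest from coding genes, the gaps with most regions or most per Mb, 3 on each side of the 100 kb bound and those nearest to list genes. Regions ranked after leaving out those within 5 kb of IgG regions, and the miRNA loci, were chosen after values were seen. A few regions that the rule names are not reported here. No genome sequence was used here, so motifs were searched in RefSeq promoter windows only. Among the desert summits, only that at Mir100hg falls in such a window, and no motif search was made at the others. Python 3.11.15, numpy 2.4.6, pandas 2.3.3, scipy 1.17.1 and matplotlib 3.10.9 were used.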

Additional observations from a re-analysis of the deposited data

How the results depend on the processing

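Of 71 values under alternatives, 42 stayed within the counting interval (or 1.5 times the count) and 29 did not. Over 200 kb from coding genes, 400 regions were left (3.69% of Otp regions), with 31.25% having a neighbour within 100 kb. Over 50 kb, the share of Otp regions was 9.68% and IgG overlap 7.75%. At a −log10 q of at least 5, there were 462 regions (5.70%), a median fold enrichment of 7.40, 34.85% at 10 or more, 31.6% with a neighbour and 14.6% IgG overlap. At 10 or more, there were 161 (4.50%), with 9.49, 28.6% and 32.6%; the share at 10 or more is then fixed and was not computed. A fold enrichment of at least 5 gave a median of 6.675 and 33.2% with a neighbour. With other genes not considered, the share of Otp regions was 7.11%. Over 100 kb from genes of any biotype, there were 117 (1.08%), with 17.1% at 10 or more, 24.8% with a neighbour and 5.645% IgG overlap. Counting IgG regions within 5 kb as overlap gave 14.6%. Counting regions closer than 1 kb once gave 27.4% with a neighbour and 6.195% IgG overlap. Without the first 5 Mb of each chromosome, 19.85% reached 10 and 5.44% overlapped an IgG region. The causes were not tested. No paired analysis was possible because Otp and IgG have 1 library each, and leaving out a library was impossible for the same reason. The scaling between the libraries limits comparison with IgG at regions of few tags, since its estimates differ and depth is unknown.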

Other observations

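The X chromosome, outside the rule, held few regions in its deserts. Of its 246 Otp regions, 6 met the position rule and 1 of these overlapped an IgG region. On the autosomes, 780 of 11085 Otp regions met it. The 5 left lie in 54.5 Mb of desert and have a median fold enrichment of 5.29. Their density is 0.0918 per Mb (95% Poisson interval 0.0298 to 0.214), against 1.09 per Mb in autosomal deserts. The density over the whole X chromosome was not worked out, so the low value is not shown to be particular to its deserts.

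The immunoglobulin kappa locus counts as desert, since its segments are not annotated as protein-coding. It held 1 region, at positions 68672943 to 68673028 of chromosome 6, with 13 tags and a fold enrichment of 9.26, 1655 bp from the segment pseudogene Igkv2-95-1.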
